A study of Mus musculus with 30 samples.

Results

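Desmoplakin-deficient cardiac myocytes were compared between ages, with 5 libraries from 6-month-old mice set against 5 libraries from 3-month-old mice. They make up 10 of the 30 libraries in the series. All 10 were Myh6-Cre:DspW/F mice (heterozygotes below), and all came from mice kept at regular activity. Cre recombinase driven by Myh6 acts in cardiac myocytes, and the series title describes the mice as haplo-insufficient for desmoplakin and as a model of arrhythmogenic cardiomyopathy. Wild-type mice of the same ages and activity (5 libraries at 3 months and 5 at 6 months) served as the reference for the same interval. In both genotypes spike-in control rows differed by age, as given below, so age and library set cannot be told apart. The labels do not say whether wild-type mice carry Cre, whether replicates are separate animals, or which part of Dsp is deleted, so p-values measure the spread between these libraries, which may be technical. Every library of cardiac myocyte RNA was depleted of ribosomal RNA and sequenced as total RNA. The other 10 libraries, from exercised mice, were in no comparison but shared in the gene filter, the scaling and the estimate of spread.

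Desmoplakin is the protein that ties desmosomes, the spot-like junctions of the intercalated disc, to the desmin filaments of the heart muscle cell. Loss of desmosomal proteins in patients and mice is known for cell death, fibrosis, fat deposition and arrhythmia that develop with age. Adult ventricular myocytes draw most of their energy from mitochondrial oxidation of fatty acids, and fibroblasts, endothelial cells, pericytes and macrophages lie between them.

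Of 15587 genes tested, 228 were higher and 306 were lower at 6 months than at 3 months in heterozygotes at an adjusted p under 0.05 (called), which is 3.43% of the genes tested, 1.46% in the higher and 1.96% in the lower direction. The higher genes included members of the fibroblast, extracellular matrix, endothelial, macrophage and complement lists, whose median log2 fold changes were 1.04 to 1.48. The lower protein-coding genes included subunits of oxidative phosphorylation, enzymes of fatty acid oxidation and the TCA cycle, and sarcomere proteins, with changes of mostly under 1 log2 unit. Small nucleolar and other small RNAs showed the largest falls. The median log2 fold change over all tested genes was -0.02. In wild type the same interval gave 62 higher and 72 lower genes, 0.86% of those tested (0.398% higher and 0.462% lower).

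The libraries were uneven, and this touches every count below. Total counts ranged from 11232143 to 23365390 at 3 months and from 17089878 to 23710331 at 6 months in heterozygotes. Heterozygotes 1 and 2 at 3 months had 0.552% and 0.551% of their counts in small nucleolar and small Cajal body RNAs, against 0.0936% to 0.124% in the other 3-month heterozygotes and 0.0875% to 0.128% in 3-month wild type. The library labelled heterozygote 3 at 3 months resembled wild type in genes that separated the genotypes, as given below. Heterozygote 3 at 6 months had the highest level of many non-myocyte transcripts. Xist was high (above the midpoint of its log2 range) in heterozygotes 2 and 4 at 6 months. At 3 months it was high in heterozygotes 1 and 2 and the library labelled heterozygote 3. Leaving out these 3 together therefore left no Xist-high library in the 3-month group. Leaving out heterozygotes 1 and 2 at 3 months gave 317 higher and 480 lower genes (4.85% of the genes tested then, 1.93% higher and 2.92% lower). Leaving out the 3-month library labelled heterozygote 3 gave 131 and 196 (2.05%, with 0.821% higher and 1.23% lower). Without these 3 libraries the counts were 442 and 325 (4.45%, with 2.57% higher and 1.89% lower). Without heterozygote 3 at 6 months they were 35 and 146 (1.14%, with 0.22% higher and 0.916% lower). Of these 181 genes, 175 were among the 534 called with every library. In that fit 28 protein-coding genes were called higher and 59 lower, against 215 and 202 with every library. Small RNAs made up 84 of its lower calls, against 97 with every library. Leaving out heterozygote 2, 4 or 5 at 3 months gave 127, 87 and 121 higher genes, and leaving out heterozygote 1, 4 or 5 at 6 months gave 150, 133 and 111. The combined count was 302 without heterozygote 4 at 3 months and 345, 341 and 275 without heterozygotes 1, 4 and 5 at 6 months. Of the 81 genes named below that were called with every library, 31 were called in each of the 10 fits that left out 1 heterozygous library.

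**Figure D1:**
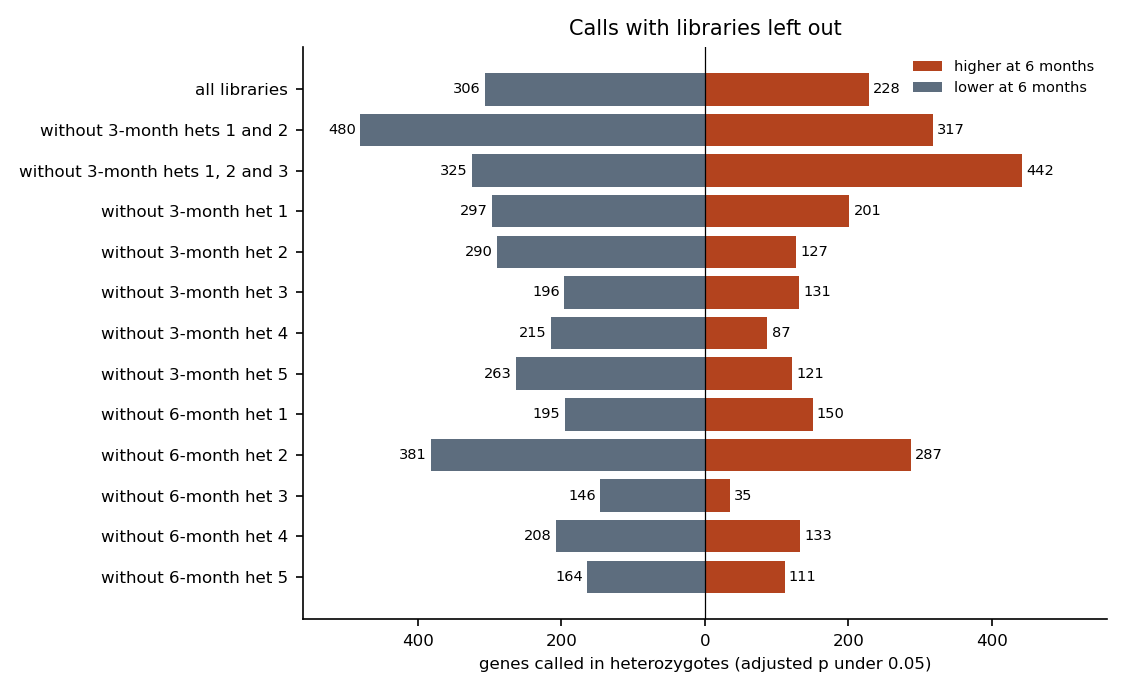
Number of genes called in heterozygotes at 6 against 3 months (horizontal axis, genes), higher to the right and lower to the left, with every library and with the named libraries left out. Without heterozygote 3 at 6 months the higher count fell from 228 to 35 and the lower count from 306 to 146, the smallest of these fits. Of those 146, 59 were protein-coding and 84 were small RNAs, against 202 and 97 with every library.

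Dsp, the targeted gene, was measured first. Its level was 729, 741, 1126, 656 and 573 CPM (counts per 10⁶, on TMM-scaled library sizes) in heterozygotes 1 to 5 at 3 months and 620.4, 653, 593, 581 and 679.8 CPM at 6 months. The log2 difference was -0.29 (SE 0.19, adjusted p = 0.426), so no change with age passed the test. The library labelled heterozygote 3 at 3 months, at 1126 CPM, was the highest of the 10 and lay within the 3-month wild-type range of 752 to 1299 CPM, while the other 9 lay below that range. Ndnf, which encodes a secreted neuron-derived factor, stood at 33.8, 26.9, 8.82, 25.5 and 35.4 CPM in the 3-month heterozygotes and 33.2, 22.6, 23.8, 23.4 and 30.7 CPM at 6 months, against 5.05 to 9.53 CPM in 3-month wild type. In Ndnf too, the library labelled heterozygote 3 at 3 months fell among the wild-type libraries. Dmd, which encodes dystrophin, the link between the cytoskeleton and the basement membrane, was 136, 160.5, 336, 127 and 158 CPM at 3 months and 152, 90, 128, 142 and 141 CPM at 6 months, with the same library highest. With all libraries the log2 difference of Dmd was -0.49 (SE 0.19, adjusted p = 0.137), and without that library the adjusted p was 0.685.

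The question of the comparison is how expression differed between 3 and 6 months in myocytes that carry the Dsp allele. Connective tissue genes were among those that moved most. Of 17 fibroblast markers, all tested, 16 were higher and 1 lower at 6 months, 7 were called, all higher, and the median log2 fold change was 1.36, against 0.19 in wild type. The summed level of these markers was 358.2 to 517.7 CPM at 3 months and 713.1 to 1132 CPM at 6 months, so the groups did not overlap, and none was at 0 in either group. Among all genes tested, the 5 libraries of each age did not overlap in 4.4% with the 6-month libraries higher and in 2.84% with them lower. Of 53 tested extracellular matrix genes, 49 were higher, 11 were called higher and none lower, and the median was 1.18 in heterozygotes and 0.12 in wild type. Mean log2 CPM over the matrix list was 2.80 to 3.35 at 3 months and 3.94 to 4.41 at 6 months, against 2.97 to 3.58 and 3.28 to 3.46 in wild type. In bulk RNA, more cells of a type and more RNA per cell cannot be told apart.

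Col3a1, a fibrillar collagen of heart scar and interstitium, was 74.1, 40.4, 55.8, 40.7 and 32.9 CPM in the 3-month heterozygotes and 167, 124, 184, 126 and 141 CPM at 6 months. Every 6-month library lay above every 3-month library, with the lowest 6-month value well above the highest 3-month value of 74.1 CPM. The log2 fold change was 1.60 (SE 0.43, adjusted p = 0.0401), against 0.06 in wild type. Lum, which encodes lumican, a proteoglycan that binds collagen fibrils, was 14.1, 8.91, 9.32, 3.85 and 2.33 CPM at 3 months and 21.7, 27.2, 32.9, 33 and 23.5 CPM at 6 months, again with no overlap. Lum rose by 1.82 (SE 0.44, adjusted p = 0.0221) on the log2 scale. Dcn, which encodes decorin, another collagen-binding proteoglycan, went from 45.4, 37.8, 49.5, 22.2 and 41.8 CPM to 82.4, 91.8, 154, 107 and 107 CPM, a log2 fold change of 1.46 (SE 0.35, adjusted p = 0.0204). All 5 libraries at 6 months exceeded all 5 at 3 months, and heterozygote 3 was the highest.

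Timp1, an inhibitor of matrix metalloproteinases that is induced in injured heart, had the largest called rise among the protein-coding genes that met the naming rule. It stood at 1.23, 1.3, 0.882, 2.13 and 1.08 CPM at 3 months and at 16.9, 3.88, 3.1, 3.54 and 5.31 CPM at 6 months, with heterozygote 1 at 6 months far above the other 4. The log2 fold change was 2.30 (SE 0.57, adjusted p = 0.0215), and the adjusted p was 0.0636 without heterozygotes 1 and 2 at 3 months and 0.115 without heterozygote 1 at 6 months. Meox1, a transcription factor of activated fibroblasts, was 2.69, 3.32, 3.72, 1.93 and 1.92 CPM at 3 months and 6.39, 7.27, 14.4, 10 and 11 CPM at 6 months. Its groups did not overlap, and the log2 fold change was 1.85 (SE 0.44, adjusted p = 0.0175). Dpt, which encodes the matrix protein dermatopontin, and Col6a3, a chain of microfibril-forming collagen VI, rose by 1.70 and 1.51 on the log2 scale (adjusted p = 0.0436 and 0.0254). Pcolce, the enhancer of procollagen C-proteinase, ranged from 17.6 to 42.7 CPM at 3 months and from 38.2 to 51.7 CPM at 6 months, and its log2 difference of 0.60 did not pass the test (adjusted p = 0.0555).

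These calls depended on single libraries. Of the 10 fits that left out 1 heterozygous library, Col3a1 and Dpt were each called in 2. Timp1 and Col6a3 were each called in 7, and Lum, Dcn and Meox1 in 8. Without heterozygote 3 at 6 months, 0 of the 17 fibroblast markers and 1 of the matrix genes were called, while their medians were still 1.31 and 1.12. Without heterozygotes 1 and 2 at 3 months, 5 fibroblast markers and 5 matrix genes were called, and without the library labelled heterozygote 3 at 3 months 3 and 7 were. Whether the matrix genes moved apart from the fibroblast markers was not tested.

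Endothelial and mural genes were higher as well. All 20 endothelial markers were higher at 6 months, 5 were called, and the median log2 fold change was 1.04, against 0.09 in wild type. Their mean log2 CPM was 4.48 to 4.83 in the 3-month heterozygotes, below 3 of the 5 3-month wild-type libraries (4.70 to 5.81), and 5.2 to 6.22 at 6 months, against 5.07 to 5.55 in 6-month wild type. Summed levels were 611.2 to 807.2 CPM at 3 months and 995.4 to 2164 CPM at 6 months, with no marker at 0. Cdh5, which encodes VE-cadherin of endothelial junctions, was 43.5, 43.6, 52.1, 33.4 and 43.5 CPM at 3 months and 81, 72.1, 170.0, 89.1 and 123 CPM at 6 months. The groups did not overlap, and the log2 fold change was 1.31 (SE 0.29, adjusted p = 0.0131). Erg, an endothelial transcription factor, and Robo4, a receptor of vessel stability, rose by 1.24 and 1.09 (adjusted p = 0.0254 and 0.0347), and Ushbp1, listed here as an endothelial marker, by 0.88 (adjusted p = 0.0205).

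Of 13 tested pericyte and smooth muscle markers, 11 were higher and 3 were called. Rgs5, a regulator of G-protein signalling that marks pericytes, was 149, 136, 134, 105 and 141 CPM at 3 months and 252, 231, 506, 307 and 332 CPM at 6 months, with no overlap and a log2 fold change of 1.29 (SE 0.32, adjusted p = 0.0273). Vtn, which encodes vitronectin, and Steap4, a metalloreductase found in cardiac pericytes, rose by 1.32 and 1.07 on the log2 scale (adjusted p = 0.0176 and 0.0465). Rgs5, Vtn and Steap4 were called in 6, 9 and 1 of the 10 fits that left out 1 heterozygous library. Without heterozygote 3 at 6 months no endothelial, pericyte or smooth muscle marker was called, with medians of 0.87 and 0.62. Without heterozygotes 1 and 2 at 3 months, 2 endothelial markers and 1 mural marker were called.

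Nidogens and syntrophin carried the calls in the list of dystrophin complex and basement membrane genes, in which 12 of 24 members were higher. Nid1 and Nid2, basement membrane proteins that bridge laminin and collagen IV, rose by 1.44 and 1.07 on the log2 scale (adjusted p = 0.0292 and 0.0218), and Sntb2, a syntrophin, by 0.74 (adjusted p = 0.0468). The list's median was 0.01, close to that of all genes. None of the list was called without heterozygote 3 at 6 months, nor without the library labelled heterozygote 3 at 3 months, and Nid1, Nid2 and Sntb2 were called in 4, 7 and 3 of the 10 fits that left out 1 heterozygous library.

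Macrophage and complement transcripts were low in level and higher at 6 months. All 16 tested macrophage and monocyte markers were higher, 4 were called, and the median log2 fold change was 1.48 in heterozygotes and 0.11 in wild type. The 20 listed markers summed to 21.06 to 51.25 CPM at 3 months and 85.05 to 165.6 CPM at 6 months in heterozygotes, and to 30.12 to 53.08 CPM in 6-month wild type. Csf1r, the receptor that macrophages need for survival, was 3.5, 1.78, 5.54, 2.48 and 3.17 CPM at 3 months and 5.8, 8.66, 16.1, 8.63 and 8.88 CPM at 6 months. The lowest 6-month library, at 5.8 CPM, was just above the highest 3-month library, at 5.54 CPM, and the log2 fold change was 1.53 (SE 0.39, adjusted p = 0.0235).

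C1qa, C1qb and C1qc encode the chains of C1q, the recognition protein of the classical complement pathway, which tissue macrophages make. C1qa was 4.08, 1.86, 2.65, 0.413 and 2.42 CPM at 3 months and 6.14, 6.29, 17.7, 8.82 and 8.47 CPM at 6 months. The log2 fold changes were 2.02 for C1qa, 2.03 for C1qb and 1.46 for C1qc (adjusted p = 0.0367, 0.0459 and 0.0494), each without overlap of the groups. They were called in 3, 2 and 2 of the 10 fits that left out 1 heterozygous library. The proteases that C1q activates, C1ra and C1s1, and Serping1, the inhibitor of both, rose by 1.41, 1.51 and 1.60 (adjusted p = 0.0142, 0.018 and 0.00823). Serping1 went from 17.7, 11, 12.5, 13.2 and 14.3 CPM to 28.4, 34, 60.8, 42.6 and 43.4 CPM, with every 6-month library above every 3-month library, and was called in each fit that left out 1 heterozygous library. In the list of antigen presentation and complement genes, 25 of 27 were higher and 7 were called, none lower. C1ra and C1s1 belong to a family with near-identical copies in the mouse, so their counts are uncertain.

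Among inflammation and NF-kappaB genes, 25 of 31 were higher and 4 were called. Tnfrsf1a and Tnfrsf1b, both TNF receptors, rose by 1.00 and 1.35 on the log2 scale (adjusted p = 0.0347 and 0.0347). Cxcl12, a chemokine of stromal and endothelial cells, and Cxcl16, a chemokine of macrophages and endothelium, rose by 1.13 and 1.26 (adjusted p = 0.0369 and 0.046). Of the 10 fits that left out 1 heterozygous library, Tnfrsf1a was called in 3, Tnfrsf1b in 4, Cxcl12 in 3 and Cxcl16 in 0. Of 43 interferon response genes, 28 were higher in heterozygotes and 29 in wild type, and 0 were called by edgeR. The mean log2 CPM of this list was 3.18 in heterozygote 1 at 3 months, above the 2.36 to 3.00 of the 6-month heterozygotes. Without heterozygotes 1 and 2 at 3 months, 4 of these genes were called higher. Neutrophil markers summed to at most 1.386 CPM in any heterozygous library and none of 10 was abundant enough to test, and the 16 lymphocyte markers summed to 1.583 to 20.47 CPM at 3 months and 2.102 to 8.206 CPM at 6 months. Without heterozygote 3 at 6 months, 0 macrophage, 0 inflammation and 1 complement gene were called, with medians of 1.26, 0.75 and 1.02. The macrophage and complement lists share the C1q genes, and how far fibroblast, endothelial and macrophage RNA accounts for the other higher genes was not tested.

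**Figure D2:**
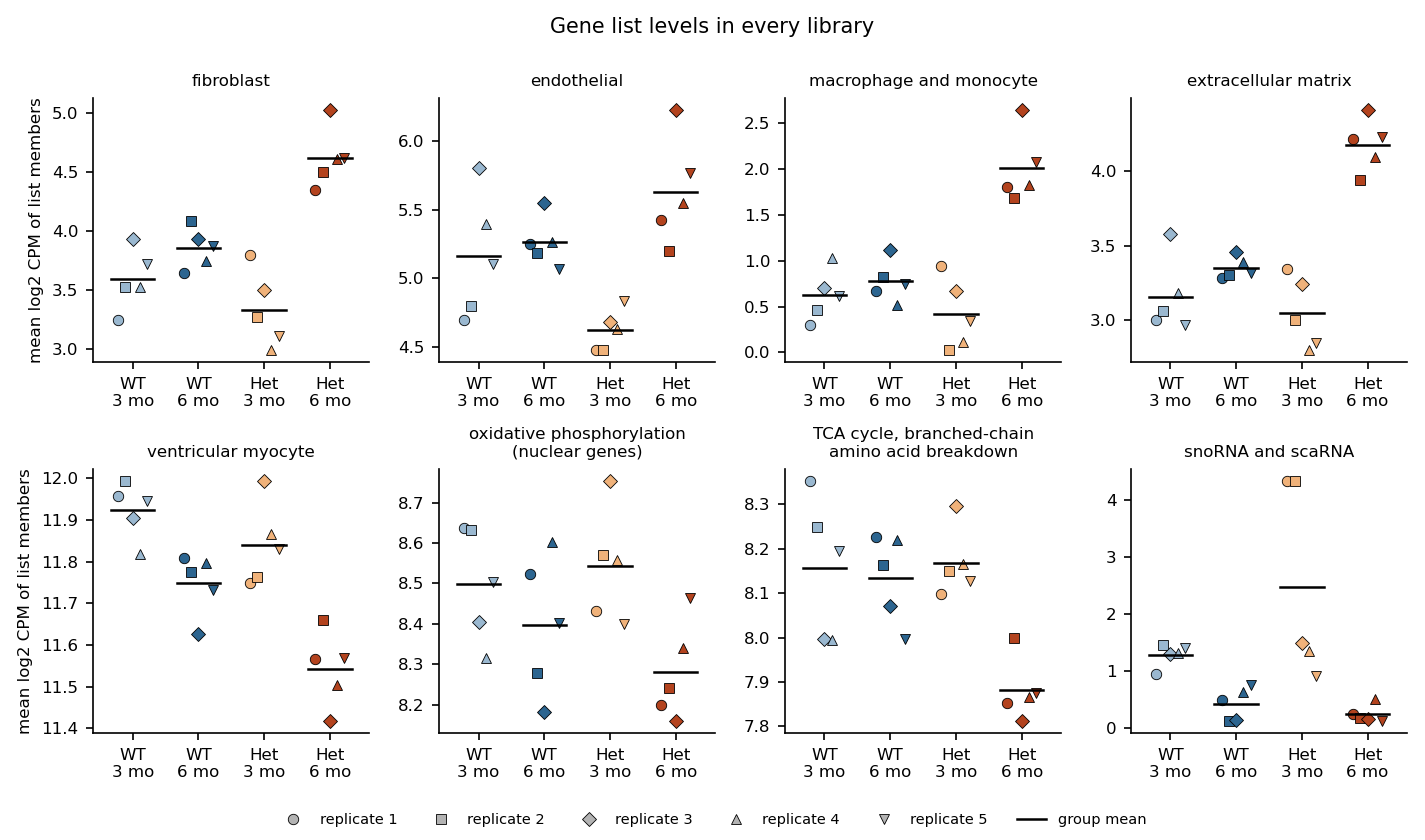
Mean log2 CPM over the tested members of 8 gene lists (vertical axis) in each regular-activity library, with wild type (WT) in blue, heterozygotes (Het) in orange and group means as lines. The 6-month heterozygotes sit above every 3-month heterozygote in the fibroblast, endothelial, macrophage and matrix lists, and heterozygotes 1 and 2 at 3 months stand apart in small nucleolar and small Cajal body RNA (snoRNA and scaRNA).

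Other genes with large rises had varied roles. Cxcl14, a chemokine of fibroblasts and epithelia, went from 2.23, 1.54, 2.08, 3.44 and 2.17 CPM at 3 months to 7.62, 5.39, 11.4, 5.67 and 9.98 CPM at 6 months, a log2 fold change of 1.80 (SE 0.42, adjusted p = 0.0139) without overlap. Rem1, a small GTPase that regulates calcium channels, and Cmklr1, the chemerin receptor, rose by 1.69 and 1.64 (adjusted p = 0.0221 and 0.0469). Mxra7, a matrix remodelling associated gene, and Dynlt1b, a dynein light chain with near-identical copies whose count is therefore uncertain, rose by 1.63 and 1.61 (adjusted p = 0.0476 and 0.0308). Cdkn1c, an inhibitor of cell cycle kinases, went from 2.35, 3.24, 2.52, 2.82 and 3 CPM to 5.93, 5.8, 10.7, 5.93 and 6.54 CPM, a log2 fold change of 1.33 (SE 0.29, adjusted p = 0.00793). It was the 1 called gene of 36 in the cell cycle list, where 3.43% of all tested genes were called. Cdkn1c was called in each fit that left out 1 heterozygous library, with a highest adjusted p of 0.0489 without heterozygote 3 at 6 months. Without that same library none of the other 5 genes was called, with an adjusted p of 0.0532 for Cxcl14, 0.124 for Rem1, 0.121 for Cmklr1, 0.129 for Mxra7 and 0.0765 for Dynlt1b, and Cmklr1 and Mxra7 were each called in 2 of the 10 such fits.

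Npr1, the receptor for atrial and B-type natriuretic peptides, was 7.54, 8.26, 5.99, 8.19 and 4.25 CPM in the 3-month heterozygotes and 12.8, 9.39, 20.6, 13.8 and 15.5 CPM at 6 months. All 6-month libraries were above all 3-month libraries, and the log2 fold change was 1.07 (SE 0.24, adjusted p = 0.0107). In wild type its level was 8.35 to 14.9 CPM at 3 months and 7.01 to 12.5 CPM at 6 months. The difference between the genotypes' changes was 1.40 on the log2 scale, with an unadjusted p of 2.34e-04 that did not pass adjustment over all genes. Tgfbr2, the type II TGF-beta receptor, rose by 0.78 (SE 0.19, adjusted p = 0.0154). It was the 1 called gene of 37 in the TGF-beta and BMP list, where 3.43% of all tested genes were called. Fabp4, a fatty acid carrier of endothelium and fat, rose by 1.21 (adjusted p = 0.0492), while none of 6 tested adipocyte markers was called and all 6 were lower. When heterozygote 3 at 6 months was left out, the adjusted p was 0.06 for Npr1, 0.0775 for Tgfbr2 and 0.166 for Fabp4, so none was called, and Fabp4 was called in 1 of the 10 fits that left out 1 heterozygous library.

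**Figure D3:**
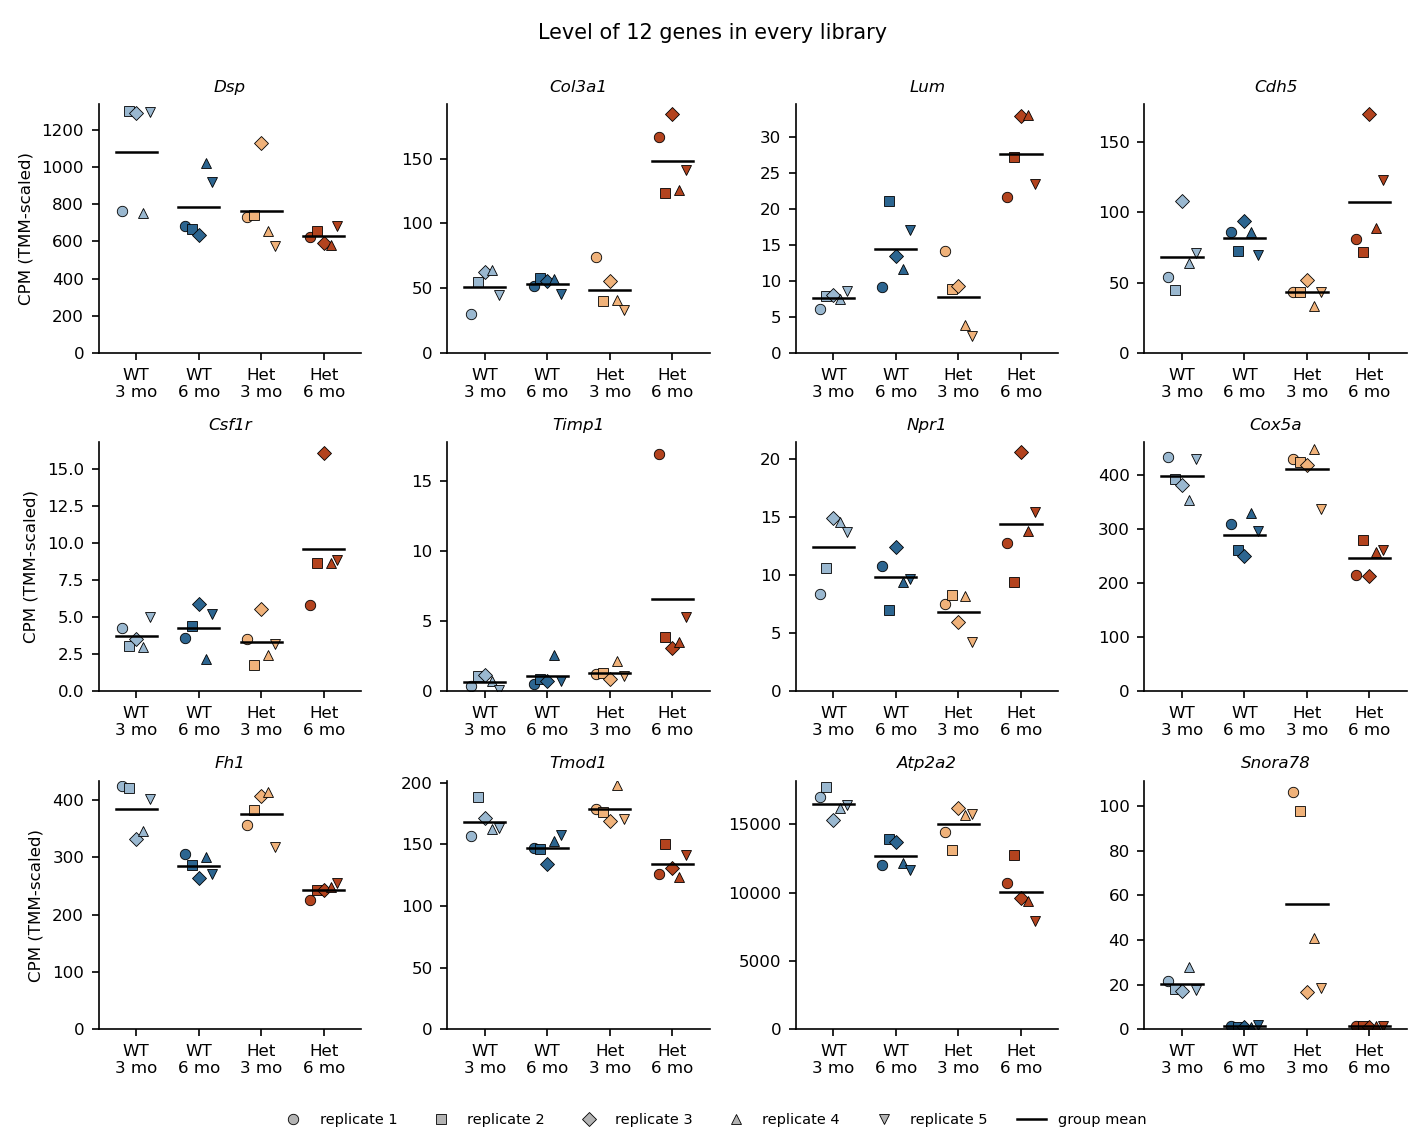
Level of 12 genes in CPM (vertical axis, linear from 0) in each regular-activity library, with group means as lines. Matrix, endothelial and macrophage genes are higher in every 6-month heterozygote than in any 3-month heterozygote, Timp1 is at 16.9 CPM in heterozygote 1 at 6 months, and Cox5a, Fh1, Tmod1 and Atp2a2 are lower at 6 months without overlap.

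Energy metabolism moved the other way and by smaller steps. Of 78 nuclear genes of oxidative phosphorylation, 66 were lower and 12 higher at 6 months, 15 were called lower and 1 higher, and the median log2 fold change was -0.28, against -0.12 in wild type. Cox5a, a subunit of cytochrome c oxidase (complex IV), was 429, 424, 418, 448 and 337 CPM at 3 months and 215, 279.8, 214, 258 and 262 CPM at 6 months. No 6-month library reached the lowest 3-month library, and the log2 fold change was -0.74 (SE 0.12, adjusted p = 2.48e-04). Atp5e and Atp5k, subunits of ATP synthase, fell by 0.60 and 0.88 on the log2 scale (adjusted p = 0.00212 and 0.00212). Atp5k was 188, 219.9, 209, 141 and 119.6 CPM at 3 months and 98.1, 90.9, 86.1, 99.6 and 102 CPM at 6 months. Cox5a, Atp5e and Atp5k were each called in every fit that left out 1 heterozygous library, and 18 members were called lower without heterozygotes 1 and 2 at 3 months, 8 without the library labelled heterozygote 3 at 3 months, and 8 without heterozygote 3 at 6 months. Transcript length moved with the comparison as well. Among protein-coding genes split into 5 equal groups by exon length, the median log2 fold change in heterozygotes ran from -0.077 in the shortest group (median 1812 bases) to 0.007 in the longest (median 10091 bases), and from -0.023 to 0.023 in wild type. The shortest group held 74 lower and 36 higher calls in heterozygotes and the longest 20 and 44, and the part of length in the lower energy genes was not tested.

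Of 45 genes of fatty acid uptake and oxidation, 41 were lower, 6 were called lower and 1 (Fabp4) higher, with a median of -0.27 and of -0.03 in wild type. Etfb, a subunit of the flavoprotein that passes electrons from acyl-CoA dehydrogenases, was 58, 51.9, 46.1, 32.8 and 37.1 CPM at 3 months and 20, 22.1, 21.1, 23 and 22.4 CPM at 6 months. Its groups did not overlap, the log2 fold change was -1.06 (SE 0.18, adjusted p = 4.22e-04), and it fell in wild type too (log2 -0.94, adjusted p = 0.00391). Cpt1b, the carnitine transferase that admits fatty acids to the mitochondrion, was 12.5, 13, 10.7, 4.47 and 5.75 CPM at 3 months and 2.16, 3.47, 3.99, 3.69 and 3.27 CPM at 6 months. Its log2 fold change was -1.49 (SE 0.32, adjusted p = 0.00688), but heterozygotes 1 and 2 and the library labelled heterozygote 3 held the high 3-month values, and without heterozygotes 1 and 2 the adjusted p was 0.0691. Acadl, the long-chain acyl-CoA dehydrogenase, fell by 0.43 (SE 0.10, adjusted p = 0.014).

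Esrra encodes ERRα, a nuclear receptor that activates genes of oxidative metabolism, and was among the 6 lower genes of that list. It was 177, 172, 219, 243 and 234 CPM at 3 months and 151, 154, 122, 131 and 126 CPM at 6 months, with no overlap. The log2 fold change was -0.61 (SE 0.11, adjusted p = 0.0017), it was called in each of the fits that left out a heterozygous library, and in wild type it was -0.26 (adjusted p = 0.336). The estrogen-related receptors bind a motif that contains AAGGTCA. The promoters of the lower energy genes were therefore read for these letters on either strand, in windows from 250 bases before to 50 bases after the start (RefSeq, GRCm38.p6). Of the 25 genes called lower in the oxidative phosphorylation, fatty acid and TCA cycle lists, 22 had a window and 4 of these (Acacb, Atp5e, Atp5g3 and Atp5k) held the letters, against 4.72% of all 32851 windows and 3.11% of the 10659 tested genes with a window. Acacb and Atp5g3 are named for this match alone. The palindromic core motif of NRF1, a regulator of nuclear genes for mitochondrial proteins, was searched in the same way and was found in 1 of the 22 windows (Atp5k, where it is in lower case), against 0.971% of all windows and 2.02% of those of tested genes. The 2 ATP synthase promoters are shown with the match in capitals, on the gene's own strand.
Atp5k, chr5:108434350-108434649, minus strand: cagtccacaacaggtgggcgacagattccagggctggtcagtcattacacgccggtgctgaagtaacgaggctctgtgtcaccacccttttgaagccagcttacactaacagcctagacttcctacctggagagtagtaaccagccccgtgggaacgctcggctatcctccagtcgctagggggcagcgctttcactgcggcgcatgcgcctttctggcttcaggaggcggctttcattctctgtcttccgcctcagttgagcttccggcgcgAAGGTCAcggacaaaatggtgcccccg
Atp5e, chr2:174464052-174464351, minus strand: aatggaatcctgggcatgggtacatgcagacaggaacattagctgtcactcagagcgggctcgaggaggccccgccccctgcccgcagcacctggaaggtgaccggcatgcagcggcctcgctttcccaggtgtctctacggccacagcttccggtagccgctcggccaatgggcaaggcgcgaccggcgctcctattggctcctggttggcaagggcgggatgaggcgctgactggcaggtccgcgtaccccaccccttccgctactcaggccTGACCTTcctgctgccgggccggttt
In Atp5k the letters read as AAGGTCA and in Atp5e as their reverse complement. They begin at base 274 of the window in Atp5k and at base 275 in Atp5e, so both matches lie after the gene start and not upstream of it. A match is a description of the sequence and was not tested for binding or for a part in the falls.

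All 41 genes of the TCA cycle and branched-chain amino acid breakdown were lower at 6 months, 4 were called, and the median was -0.29, against -0.01 in wild type. The mean log2 CPM of the list was 8.10 to 8.30 at 3 months and 7.81 to 8.0 at 6 months in heterozygotes, with no overlap, and 7.99 to 8.35 and 8.0 to 8.23 in wild type. Fh1, fumarate hydratase, was 356, 382, 406, 413 and 318 CPM at 3 months and 226, 242, 243, 249 and 255 CPM at 6 months, and fell by 0.63 (SE 0.11, adjusted p = 4.82e-04) on the log2 scale. Fh1 was called in every alternative fit and also fell in wild type, with a log2 fold change of -0.43 (adjusted p = 0.0385). Mdh2, Idh2 and Pdha1, which encode mitochondrial malate dehydrogenase, isocitrate dehydrogenase and a pyruvate dehydrogenase subunit, fell by 0.40, 0.50 and 0.33 (adjusted p = 0.0424, 0.0476 and 0.0498), each lost in most fits with a library left out. Without heterozygote 3 at 6 months, 1 gene of the list was called, and without the library labelled heterozygote 3 at 3 months 1 was.

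In the list of glucose uptake and glycolysis, 20 of 31 genes were lower and 2 were called. Aldoa, aldolase A, and Hk2, a hexokinase bound to mitochondria, fell by 0.34 and 0.41 (adjusted p = 0.0476 and 0.0488), and neither was called without heterozygote 3 at 6 months. The proteins of the mitochondrial ribosome, a family chosen after the values were seen, had 63 of 77 members lower and 7 called lower, with a median of -0.19, against -0.07 in wild type. The called members numbered 3 without the library labelled heterozygote 3 at 3 months, 3 without heterozygote 3 at 6 months and 12 without heterozygotes 1 and 2 at 3 months.

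Transcripts encoded by the mitochondrial genome did not follow the nuclear subunits. Of 13, 12 were higher at 6 months and 1 was called, with a median log2 fold change of 0.65, against 0.00 in wild type. mt-Co1, a core subunit of cytochrome c oxidase, was 36830, 58550, 74190, 49130 and 62420 CPM at 3 months and 93270, 68960, 147300, 107000 and 153900 CPM at 6 months. The ranges overlapped, and the log2 fold change was 1.02 (SE 0.26, adjusted p = 0.0287). The adjusted p of mt-Co1 was 0.106 without heterozygote 3 at 6 months and 0.0893 without heterozygotes 1 and 2 at 3 months, so that no gene of the list was called in either fit, and mt-Co1 was called in 6 of the 10 fits that left out 1 heterozygous library. mt-Co2 was 229, 305, 367, 248 and 319 CPM at 3 months and 383, 282, 469.8, 507 and 973 CPM at 6 months, a log2 difference of 0.83 (SE 0.31, adjusted p = 0.133). The share of all counts from the mitochondrial genome was 11% ± 2.15 (SD, n = 5) at 3 months and 19.9% ± 6.32 at 6 months in heterozygotes, with heterozygotes 3 and 5 at 6 months highest at 25.7% and 26.7%, and 12.3% ± 1.77 and 15.6% ± 1.68 in wild type. Nuclear copies of mitochondrial genes could share reads with them.

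**Figure D4:**
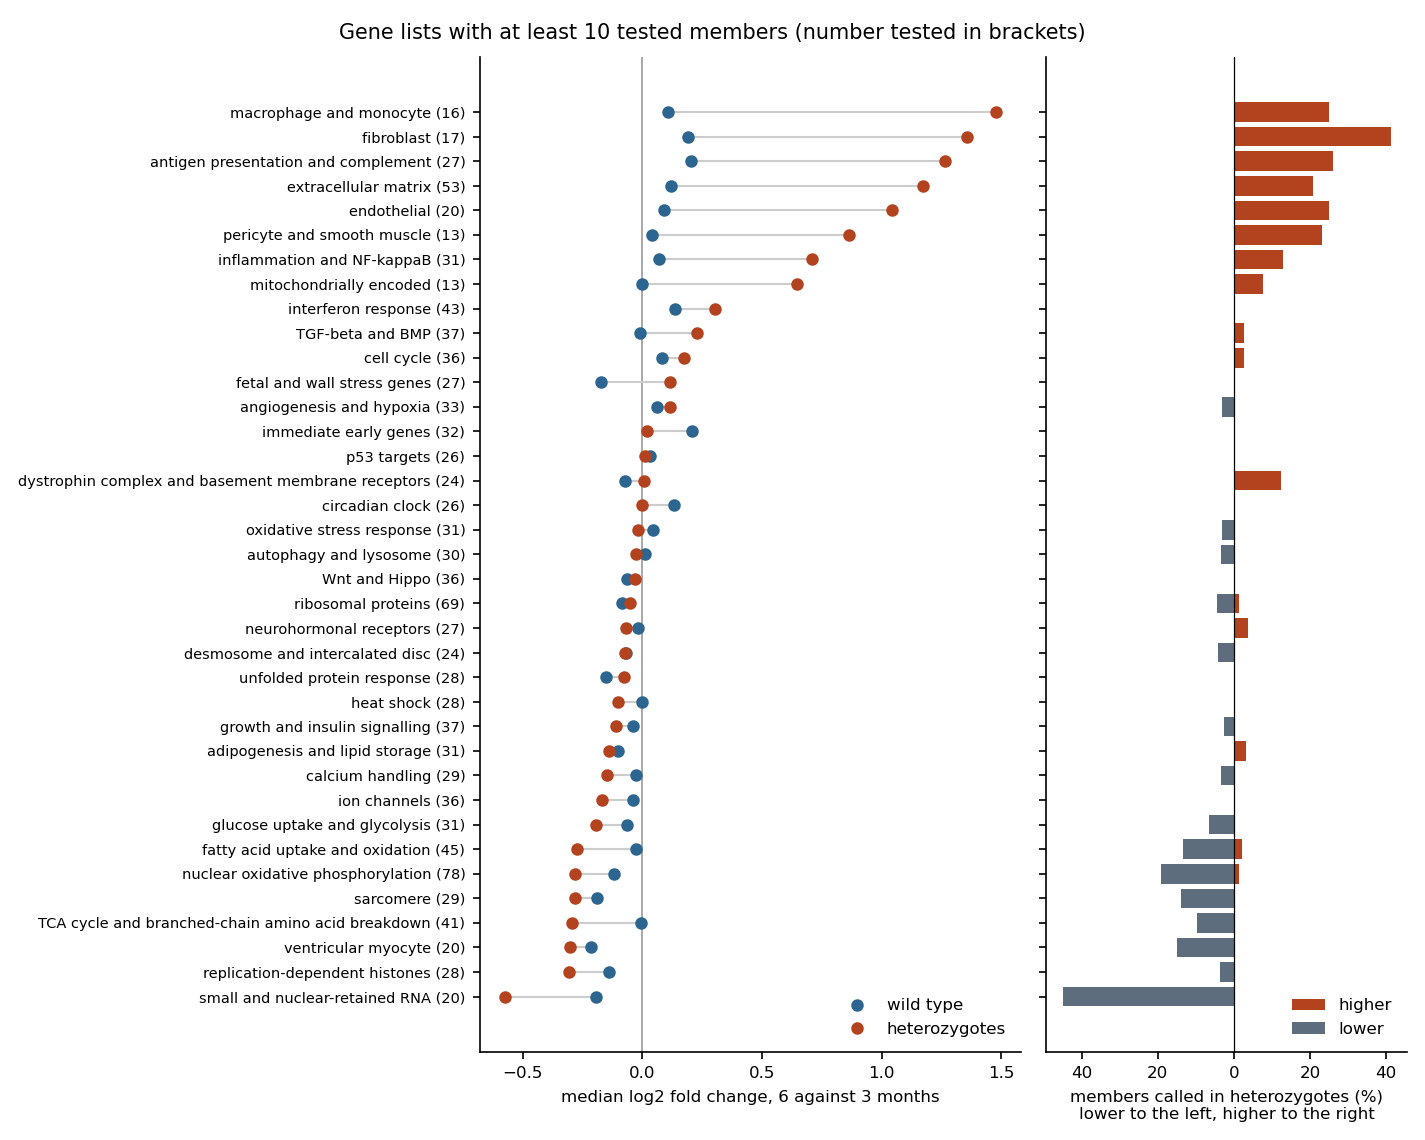
Left, the median log2 fold change at 6 against 3 months (horizontal axis) in heterozygotes and in wild type for each gene list with at least 10 tested members. Right, the percentage of members called in heterozygotes, lower to the left and higher to the right. Fibroblast, matrix, endothelial, macrophage and complement lists lie furthest to the right in heterozygotes at medians of 1.04 to 1.48, and the oxidative phosphorylation, fatty acid and TCA cycle lists lie at -0.27 to -0.29.

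Contractile genes were modestly lower. All 20 ventricular myocyte markers were lower at 6 months, 3 were called, and the median was -0.30 in heterozygotes and -0.22 in wild type. Their summed level was 116000 to 143400 CPM at 3 months and 95410 to 119200 CPM at 6 months, against 128300 to 146700 and 106900 to 128500 CPM in wild type, and no marker was at 0 in any group. Whether this fall in the whole marker list had a part in the lower energy genes was not tested. Of 29 sarcomere genes, 26 were lower and 4 were called. Tmod1, the cap of thin filament pointed ends, was 178, 176, 168, 198 and 171 CPM at 3 months and 126, 150.5, 130.4, 124 and 142 CPM at 6 months, a log2 fold change of -0.41 (SE 0.08, adjusted p = 0.00303) without overlap. Tnni3, cardiac troponin I, was 4747, 5166, 6390, 5327 and 4583 CPM at 3 months and 3327, 3546, 3171, 3890 and 3912 CPM at 6 months, and fell by 0.55 (SE 0.14, adjusted p = 0.0243). Atp2a2, the pump SERCA2 that returns calcium to the sarcoplasmic reticulum, was 14430, 13100, 16200, 15690 and 15740 CPM at 3 months and 10740, 12720, 9604, 9365 and 7961 CPM at 6 months. Its log2 fold change was -0.58 (SE 0.12, adjusted p = 0.00528), and it was called in each fit that left out 1 heterozygous library. Actn2, which anchors thin filaments in the Z-disc, fell by 0.31 (adjusted p = 0.0481), while Tcap, the titin cap, had a log2 difference of -0.59 that did not pass (adjusted p = 0.084). Without heterozygote 3 at 6 months, 1 ventricular marker and 1 sarcomere gene were called, as without the library labelled heterozygote 3 at 3 months.

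At the desmosome and intercalated disc, 15 of 24 genes were lower and 1 was called, where 3.43% of all tested genes were called. In wild type 15 were lower as well, and the medians were -0.071 in heterozygotes and -0.067 in wild type. Dsc2, the desmosomal cadherin desmocollin 2, was 69, 65.1, 57.5, 54.1 and 55.8 CPM at 3 months and 46.6, 37.7, 42, 47.9 and 37.7 CPM at 6 months. The groups did not overlap, and the log2 fold change was -0.51 (SE 0.14, adjusted p = 0.0344), against 0.00 in wild type. The adjusted p was 0.138 without heterozygotes 1 and 2 at 3 months and 0.0654 without the library labelled heterozygote 3. Jup, Pkp2 and Gja1, which encode plakoglobin, plakophilin 2 and connexin 43, had log2 differences of -0.12, 0.00 and 0.04 (SE 0.11, 0.14 and 0.25), and those of Pkp2 and Gja1 changed sign when single libraries were left out. Ctnna3, αT-catenin, and Exoc2, a subunit of the exocyst, had log2 differences of -0.42 and -0.38 (adjusted p = 0.172 and 0.27), with the library labelled heterozygote 3 highest at 3 months in both.

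Fetal and wall stress genes did not move as a list. Of 27, 15 were higher and 12 lower, none was called by edgeR, and the median was 0.12. Nppa, atrial natriuretic peptide, was 547, 57.8, 72.2, 51.4 and 23 CPM at 3 months and 175, 53.6, 74.5, 81.5 and 129 CPM at 6 months, and heterozygote 1 at 3 months alone set its mean. Its log2 difference was -0.56 (SE 0.94) and became 1.01 without that library. Atrial markers, of which Nppa is 1, summed to 785.1 to 3269 CPM at 3 months and 880.2 to 1426 CPM at 6 months. Nppb, B-type natriuretic peptide, had a log2 difference of 0.17 (SE 0.38), Myh7, the slow myosin heavy chain, of -0.28 (SE 0.57), and Myh6, the fast one, of -0.40 (SE 0.17), and none of these passed the test.

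Small RNAs accounted for 97 of the 306 lower genes and 1 of the 228 higher genes, out of 181 tested. Small nucleolar RNAs (snoRNAs) guide the modification of ribosomal RNA, those of the box C/D class 2′-O-methylation and those of the box H/ACA class pseudouridylation, and most are cut from introns of host genes. The sequences show members of both classes with the largest or clearest falls, and a Y RNA that separated heterozygotes 1 and 2 at 3 months from every other library. Capitals mark the C box core TGATGA and the D box CTGA in the C/D RNAs and the ACA box near the 3′ end in the H/ACA RNAs. They are GENCODE M21 transcripts on GRCm38, with T for U.
Snord83b, chr15:80078498-80078591, minus strand: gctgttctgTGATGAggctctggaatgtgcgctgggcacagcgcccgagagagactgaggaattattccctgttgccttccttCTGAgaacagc
Snord15a, chr7:99482785-99482932, minus strand: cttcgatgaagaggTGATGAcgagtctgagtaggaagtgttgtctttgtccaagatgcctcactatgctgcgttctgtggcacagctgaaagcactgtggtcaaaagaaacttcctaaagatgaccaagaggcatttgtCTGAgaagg
Snora78, chr17:24719676-24719803, minus strand: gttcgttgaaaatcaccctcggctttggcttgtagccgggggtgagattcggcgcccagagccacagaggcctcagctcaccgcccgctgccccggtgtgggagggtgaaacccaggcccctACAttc
Snora31, chr14:75847905-75848034, plus strand: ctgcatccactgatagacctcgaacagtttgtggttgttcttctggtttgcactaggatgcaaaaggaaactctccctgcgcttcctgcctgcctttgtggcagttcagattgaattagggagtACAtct
Rny1, chr6:47788069-47788180, minus strand: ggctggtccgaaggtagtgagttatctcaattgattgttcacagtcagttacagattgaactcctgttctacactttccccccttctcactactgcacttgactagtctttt

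Snora78, an H/ACA RNA that lies inside Snhg9 and opposite Rps2, was 106, 97.6, 16.9, 41.1 and 18.4 CPM at 3 months and 1.35, 1.39, 1.27, 1.52 and 1.34 CPM at 6 months. The 6-month libraries clustered tightly and lay far below all 3-month libraries, with a log2 fold change of -5.34 (SE 0.44, adjusted p = 2.50e-08). In wild type Snora78 went from 20.5 ± 4.51 (SD, n = 5) to 1.4 ± 0.373 CPM, a log2 fold change of -3.86 (adjusted p = 3.17e-06). Snord83b, a C/D RNA inside Rpl3, was 108, 114, 5.29, 4.33 and 3.75 CPM at 3 months and 0.804, 0.572, 0.277, 0.951 and 1.11 CPM at 6 months. Heterozygotes 1 and 2 at 3 months were more than 20 times as high as the other 3-month heterozygotes, which were themselves above all 6-month libraries. Its log2 fold change was -5.97 (SE 0.90, adjusted p = 3.00e-04), and -3.37 in wild type (adjusted p = 0.0533). Snora31, inside Tpt1, was 102, 96.3, 1.57, 2.48 and 2.67 CPM at 3 months and 0.381, 0.49, 0.222, 0.951 and 0.701 CPM at 6 months, so that its log2 fold change of -6.18 (adjusted p = 8.16e-04) had an adjusted p of 0.0526 without heterozygotes 1 and 2. Snord15a, inside Rps3, fell by 2.98 (SE 0.49, adjusted p = 5.89e-04). Snora17, Snora57 and Snora23 fell by 4.41, 4.01 and 2.61 (adjusted p = 4.81e-04, 5.84e-04 and 0.00465).

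Taking all 78 tested snoRNAs and small Cajal body RNAs, a family chosen after the values were seen, 73 were lower and 56 were called, with a median of -3.50 in heterozygotes and -0.91 in wild type. Without heterozygotes 1 and 2 at 3 months 29 were called lower and the median was -1.19, and 44 were called without heterozygote 3 at 6 months. Rny1, a Y RNA bound by the Ro60 protein, was 5124, 3643, 28.4, 22 and 58 CPM at 3 months and 15, 7.19, 5.38, 9.05 and 4.55 CPM at 6 months, with heterozygotes 1 and 2 at 3 months far above every other library. Vaultrc5, a vault RNA, was 2434, 1432, 210.3, 416 and 174 CPM at 3 months and 52.4, 85.3, 62.3, 73.4 and 61.5 CPM at 6 months. Its log2 fold change was -3.80 (SE 0.57, adjusted p = 3.01e-04), with heterozygotes 1 and 2 again highest.

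Other small RNAs fell in both genotypes. Rmrp, the RNA of the nuclease RNase MRP, was 652, 772, 202, 281 and 175 CPM at 3 months and 21.7, 28.2, 22.7, 30.7 and 16.8 CPM at 6 months, and fell by 4.11 (SE 0.41, adjusted p = 7.82e-07) in heterozygotes, and its log2 fold change in wild type was -2.68 (adjusted p = 2.87e-04). Rn7s2, a 7SL RNA of the signal recognition particle with near-identical copies, was 662, 294, 510.4, 374 and 549 CPM at 3 months and 52.8, 77, 67.3, 92.8 and 63.6 CPM at 6 months. Its log2 fold change was -2.76 in heterozygotes and -2.86 in wild type, and that of its copy Rn7s6 was -4.46 and -4.28. Rn7sk, the 7SK RNA that restrains transcription elongation, fell by 0.62 (SE 0.12, adjusted p = 0.00155), and its log2 fold change in wild type was -0.63 (adjusted p = 0.00309). The mitochondrial valine tRNA mt-Tv had log2 fold changes of -3.90 and -4.10. Spike-in control rows also held different numbers of filled entries by age (3 in each 3-month library and 11 or 18 in each 6-month regular-activity library), so age and library set cannot be told apart, and their part in these falls was not tested.

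Ribosomal protein genes did not move as a list. Of 69 ribosomal protein genes 39 were lower, 3 were called lower and 1 higher, with a median of -0.05, against -0.08 in wild type. Rplp2 was 203, 179.8, 177, 205 and 142 CPM at 3 months and 98.1, 89, 80.7, 99.8 and 97.3 CPM at 6 months, with log2 fold changes of -0.96 in heterozygotes and -0.75 in wild type (adjusted p = 3.95e-06 and 3.07e-04). Rps29 fell by 0.72 in heterozygotes, with a log2 difference of -0.49 in wild type (adjusted p = 0.00358 and 0.105), and Rplp0 fell by 0.59, with -0.21 in wild type (adjusted p = 0.0104 and 0.562, and not called without heterozygote 3 at either age). Rpl23a rose by 1.02 in heterozygotes and 1.21 in wild type (adjusted p = 5.84e-04 and 1.42e-04). Rplp2 and Rpl23a hold snoRNAs within their gene models, so their counts are uncertain. Bloc1s1, a subunit of lysosome biogenesis complexes, and Nme2, a nucleoside diphosphate kinase, had large falls among protein-coding genes and were chosen after their values were seen. Bloc1s1 had log2 fold changes of -1.84 in heterozygotes and -1.85 in wild type (adjusted p = 5.09e-06 and 6.35e-06), and Nme2 had -1.78 and -0.82 (adjusted p = 3.22e-05 and 0.104). Both overlap another gene model on the same strand.

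A few other lists held 1 called member each, all lower, where 3.43% of all tested genes were called and 1.96% were called lower. The lists had 37 tested members for growth and insulin signalling and 33 for angiogenesis and hypoxia. Those of autophagy and lysosome and of the oxidative stress response had 30 and 31. The calls are therefore given as single genes and not as a change of their lists. Foxo3, a forkhead factor of atrophy and stress resistance, fell by 0.53 (adjusted p = 0.0371), Egln1, an oxygen-sensing prolyl hydroxylase, by 0.37 (adjusted p = 0.04), and Map1lc3a, an LC3 protein of autophagosomes, by 0.38 (adjusted p = 0.0347). Txn1, thioredoxin, fell by 0.48 (adjusted p = 0.0301), and the histone gene Hist1h4h, 1 of 28 replication-dependent histones, by 0.93 (adjusted p = 0.0015). Of these, Hist1h4h was called in each fit that left out 1 heterozygous library. No member of the clock, p53, unfolded protein, heat shock, ion channel, Wnt and Hippo, or immediate early lists was called by edgeR with every library, while without heterozygotes 1 and 2 at 3 months 1 p53 target, 1 immediate early gene, 1 Wnt and Hippo gene and 2 ion channel genes were.

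Heterozygotes and wild type were then compared. Of the 534 genes called in heterozygotes, 53 were called in wild type, which is 9.93% of the former and 39.6% of the latter. Among protein-coding genes 4 of the 215 called higher and 18 of the 202 called lower were also called in wild type in the same direction. Of the 215, 178 were higher in wild type as well, with a median log2 fold change of 1.2 in heterozygotes and 0.25 in wild type. Of the 202, 182 were lower in wild type too, with medians of -0.52 and -0.25. Since these genes were chosen for their change in heterozygotes, the larger medians there are a description. Small RNAs shared 30 calls, 85.7% of the 35 called in wild type.

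**Figure D5:**
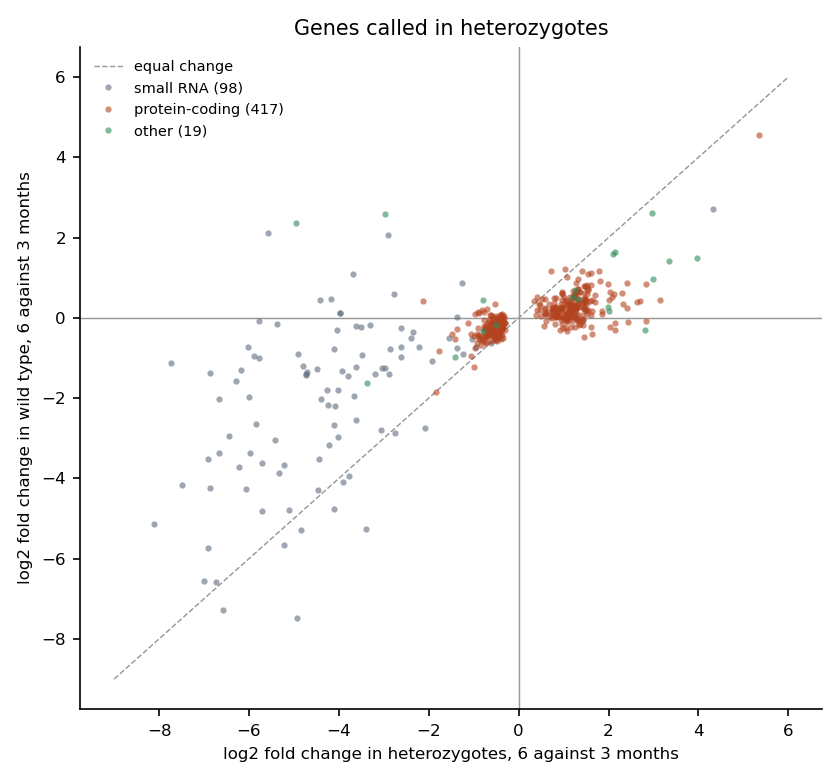
Log2 fold change at 6 against 3 months in heterozygotes (horizontal axis) and in wild type (vertical axis) for the 534 genes called in heterozygotes, by class, with the line of equal change dashed. The higher protein-coding genes lie near a median of 1.2 in heterozygotes and 0.25 in wild type, and many small RNAs are strongly lower in both.

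The test of the difference itself, the genotype by age interaction, called 0 of 15587 genes (0%) by edgeR, with 1253 at an unadjusted p under 0.05. DESeq2 called 25, and limma-voom called 0. With only the 20 regular-activity libraries edgeR called 5. No gene is therefore shown by edgeR with all 30 libraries to change with age differently in heterozygotes and in wild type. Among the genes named above, the smallest unadjusted interaction p-values belonged to Rny1 (2.10e-04), Npr1 (2.34e-04) and Snora31 (0.00144). Dropping heterozygotes 1, 2 and 3 at 3 months left 2 libraries in that group, both low in Xist. The interaction then gave 22 calls, 18 higher and 4 lower (0.128% of 17231 tested, 0.104% higher and 0.0232% lower). Leaving out heterozygote 4 at 3 months gave 6 calls, heterozygote 3 at 3 months 1 (0.00627% of those tested), wild type 4 at 3 months 2 and wild type 1 at 6 months 1, all lower.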

How the data were processed

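The series holds 30 total-RNA libraries of mouse cardiac myocytes in 6 groups of 5 that differ in genotype, age or exercise. The miRNAeasy mini kit yielded the RNA, per the labels' protocols, and libraries were ribosome-depleted, strand-specific and paired-end. The submitters' processing notes name Trim Galore, HISAT2, featureCounts and mm10. Versions, annotation, strand setting and filters are not given in the sources used here, so overlapping, antisense and near-identical genes could share reads. The deposited table holds unnormalized read counts, made by the authors, for 52550 genes and 23 spike-in entries, and the latter stayed out of library sizes and tests. Symbols that the table shows as dates were restored from gene IDs for 27 genes. GENCODE M21 (GRCm38) gave positions for 52403 genes.

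Low genes were removed by filterByExpr on the 6 groups, and TMM gave the scaling. Age within each genotype and the interaction were contrasts of a single robust quasi-likelihood fit (edgeR 4.0.16 with limma 3.58.1, under R 4.3.3) of all libraries, with 24 residual degrees of freedom, Benjamini-Hochberg adjustment over 15587 genes and a threshold of 0.05. Levels are CPM on TMM-scaled library sizes, log2 CPM adds a prior count of 2, and SE is the log2 fold change divided by the square root of F. The smallest library had 11232143 counts.

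The 44 gene lists and the genes were chosen with earlier results of these data known, so a list's direction is not independent evidence. Of 1305 list symbols 1300 were in the table. Lists are described by counts and medians, with no set test. The rule named Dsp, up to 12 called genes each way with the largest change (mean log2 CPM of at least 1, at least 9 of 10 libraries on their own side of the midpoint), the 4 or fewer list members of lowest p, called interaction genes, and Nppa, Nppb, Myh6, Myh7, Jup, Pkp2, Gja1, Ndnf, Dmd, Ctnna3, Exoc2 and Pcolce. A few rule-named genes are left out here.

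Alternatives were other size factors, no filter, a replicate block, smaller sets of libraries, libraries left out, an Xist term, a threshold of 0.01, DESeq2 1.42.0, limma-voom, and a fit without mitochondrial genes and without the 10 genes next in abundance. List counts with libraries left out, and gene families taken by symbol or biotype, were added after seeing the data. The closest pair of replicates differed by 20.39 chi-square units per degree of freedom, so no library was counted as a copy of another. The test was tried on simulated counts for the heterozygous age comparison with 15244 genes. Where mean log2 CPM was 1 or more, it recovered 30.6% of genes changed 1.5-fold, 72.7% changed 2-fold and 100% changed 4-fold. It called 2 of 15053 unchanged genes. Each gene was simulated independently, with no shift shared across a library, so these rates do not cover the uneven libraries described above.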

Additional observations from a re-analysis of the deposited data

Results flagged for a closer look

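In 18 of 192 groups of 5 heterozygous libraries (96 named genes at 2 ages), the highest or lowest library was set apart by a gap of over 0.71 of the group's range, where chance flags about 1 in 20. Heterozygote 3 at 6 months was the high library in 10 of them, at 7.71 CPM for Rem1, 12.9 for C1qc, 17.7 for C1qa, 37 for Steap4, 242 for Cxcl12, 10.7 for Cdkn1c, 27.9 for Sntb2, 22 for Nid2, 30.7 for Vtn and 24 CPM for Erg. All 10 were among the genes called higher, and they include genes of vessels, stroma and complement. In each of them the other 6-month heterozygotes also lay above all 3-month heterozygotes.

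Single genes stood apart in other libraries. Timp1 was at 16.9 CPM in heterozygote 1 at 6 months, with the next at 5.31 CPM. Idh2 was at 2060 CPM in heterozygote 2 and Gja1 at 739 CPM in heterozygote 5 at 6 months. At 3 months, Nppa was at 547 CPM in heterozygote 1, with the next at 72.2 CPM, and Dmd at 336 CPM in the library labelled heterozygote 3, with the next at 160 CPM. Heterozygote 5 at 3 months was low in Cox5a (337 CPM), Actn2 (1220 CPM) and Mxra7 (0.0834 CPM). The spike-in entries, used in no comparison, held 3 to 21 counts in each 6-month regular-activity library, with 21 in wild type 2, and 0 in each 3-month library.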

How the results depend on the processing

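With every library, edgeR called 534 genes for age in heterozygotes, 134 in wild type and 0 for the interaction. In heterozygotes the count was 341 with no low-count filter, 979 (582 higher, 397 lower) with only the 20 regular-activity libraries, 1367 with limma-voom, 982 (565 higher, 417 lower) with DESeq2 and 143 at a threshold of 0.01. Of the calls, 42.7% were higher with every library and 71.5% with only the 10 heterozygous libraries. Without the library labelled heterozygote 3 at 3 months the count was 327, and it ranged from 181 (without heterozygote 3 at 6 months) to 668 (without heterozygote 2 at 6 months) as single libraries were left out. In wild type it was 328 with DESeq2 and 43 at 0.01, and 69 to 129 with 1 library left out, at 86, 74, 69, 75 and 71 without wild types 4 and 5 at 3 months and 1, 4 and 5 at 6 months. The interaction gave 5 calls with only the regular-activity libraries, 25 with DESeq2, 1 without the library labelled heterozygote 3, 22 without heterozygotes 1, 2 and 3 at 3 months, and 0 to 6 with 1 library left out. In heterozygotes the count rose in some fits with fewer libraries and fell in others, and the cause was not tested. The replicate block gave 395, 96 and 0 calls, with no sign that numbers pair the libraries: in heterozygotes, deviations of same-numbered libraries correlated at -0.141 to 0.052, and 0 of 5 3-month libraries correlated best with their own number.

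Of 81 named genes that were called, 31 were called in all 10 fits that left out 1 heterozygous library, 53 without heterozygotes 1 and 2 and 48 without heterozygote 3 at 3 months, and 18 in every other fit at a threshold of 0.05. None of the 81 changed sign. Signs changed in uncalled genes only. Nppa (log2 -0.56) became 0.16 with the Xist term, 1.07 without heterozygotes 1 and 2 and 1.48 without 1, 2 and 3 at 3 months, and ranged from -0.84 to 1.01 with 1 library left out. Without heterozygotes 1 and 2, Pkp2 became -0.17. Without the library labelled heterozygote 3, Ndnf became -0.17 and Gja1 -0.005. Without 1, 2 and 3, Ndnf became -0.16, Myh7 0.073, Exoc2 0.077, Dsp 0.049 and Pkp2 -0.10. With limma-voom Nppb became -0.062 and Gja1 -0.21. With 1 library left out Nppb ranged from -0.14 to 0.37, Ndnf from -0.17 to 0.17, Gja1 from -0.12 to 0.24 and Pkp2 from -0.066 to 0.10. In the smallest library, of 11232143 counts, a gene at 1 CPM rests on about 11 reads.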
